A study of Mus musculus with 32 samples.

Results

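The genes described here are 32 members of the glucose-burning and low-oxygen response programme, chosen by gene symbol from a table of 16741 genes, and all 32 were present. They were 20 transport and enzyme steps that carry glucose to lactate, 5 regulators of the flux through those steps, and 7 genes of hypoxia-inducible factor 1 (HIF-1) and its targets outside glycolysis. They were measured by bulk RNA sequencing of sorted donor T cells in a mouse model of graft-versus-host disease, the attack of transplanted T cells on the host. C57Bl6 donor cells went into Balb/c hosts, which differ from them at the major tissue antigens, and cells were recovered from spleen and lymph nodes. CD4 and CD8 conventional T cells each gave 2 libraries before transplantation (day 0), 3 from recipients labelled as an untreated syngeneic control, 4 from recipients labelled GVHD and untreated (allogeneic), and 4 from recipients labelled GVHD that were given regulatory T cells (Treg) on day 0 (Treg-treated). Treg gave 2 libraries at day 0 and 3 from Treg-treated recipients, so there were 31 libraries in 10 groups. The library titles place the recovered cells at day 6, while the series text gives day 8. The strain of the syngeneic hosts, ages, conditioning of the hosts and sorting gates are not given in the sources used here, nor is whether a library was 1 animal or a pool. The p-values therefore measure the spread between these libraries, which may in part be technical.

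Glycolysis splits 1 glucose molecule into pyruvate in the cytosol. Resting T cells use little of it, and activated T cells raise glucose uptake and export much of the carbon as lactate. HIF-1 is a pair of proteins whose alpha subunit, encoded by Hif1a, is destroyed when oxygen is plentiful, after prolyl hydroxylases such as Egln1 and Egln3 have marked it. T-cell receptor and mTOR signalling also raise Hif1a. HIF-1 binds the core motif RCGTG, switches on most glycolytic genes, and raises Pdk1, whose product keeps pyruvate out of the mitochondrion, as well as Bnip3, a receptor for the removal of mitochondria. The mRNA of Hif1a is not its protein, and no protein, flux or oxygen level was measured.

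Values are the authors' normalised counts, on which genes cannot be compared with each other, since they are not corrected for transcript length. A change is a difference in log2(value + 1), tested with limma across all 16741 genes, and a gene is called where the Benjamini-Hochberg adjusted p is under 0.05. In the text "rose", "fell", "higher" and "lower" without a value belong to called genes. Median normalised counts over genes lay between 224.8 and 326.2 per library. Reads could not be recovered from the values, so the depth is unknown and no counting interval is given.

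Cd4 and Cd8a separated the sorted populations, with the exception of 1 library. CD4 syngeneic replicate JL019-2 had 1659 for Cd4, 1956 for Cd8a and 3622462 for the sum of 10 myeloid markers, against 80164 and 88492 in the other 2 libraries of its group. Results that use it are given without it where a call, a direction or a called change moved, the latter by over 1.5-fold. Foxp3, the defining factor of Treg, was 198 and 442 in the day 0 libraries labelled Treg and 978 and 1145 in day 0 CD4 libraries. The sum of 4 Treg markers (Foxp3, Il2ra, Ikzf2 and Ctla4) was 38975 and 42103 in the former and 5777 and 5925 in the latter. After transplantation Foxp3 was 265 to 293 in Treg libraries, 127 to 178 in CD4 Treg-treated and 337 to 578 in CD4 allogeneic libraries. For the sum of markers the Treg libraries then had 61496 to 104036, and the CD4 Treg-treated libraries 12691 to 22802.

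The first question was how the programme differed before and after transplantation. In allogeneic CD4 cells 18 of 32 members rose against day 0 (14.4% of all genes rose) and 5 fell (9.61% of all genes). In allogeneic CD8 cells 19 rose (16.3% of all genes) and 4 fell (14.2%). The median change of the members was 1.18 in CD4 and 1.47 in CD8 cells, where the medians over all genes were -0.04 and -0.13. Of the 20 steps, 15 rose in each cell type. In Treg recovered after transplantation 14 members rose against day 0 Treg (8.43% of all genes) and 2 fell (4.89%), and without day 0 Treg replicate JL019 7 rose and 2 fell. Several of the rises in Treg named below were therefore not called without that library. Other features of the libraries moved with these comparisons. The myeloid sum was 1168 and 1987 in day 0 and 5581 to 11270 in allogeneic CD4 libraries, with Cd14 at 0 in both day 0 libraries, and 5586 and 6013 against 6659 to 10764 in CD8 libraries, with Adgre1 at 0 in 1 allogeneic library. Of the 10 myeloid markers 5 were called higher in CD4 cells, and 4 higher and 3 lower in CD8 cells. The sum of 8 erythroid markers was 30882 and 35168 in day 0 and 568 to 14798 in allogeneic CD8 libraries, and 130 and 455 in day 0 and 1675 to 50276 in later Treg libraries. Of the 8, 3 were called lower in CD8 cells and 4 higher in Treg, and Epor was at 0 in 1 day 0 Treg library. The B cell sum (7 markers, 6 of them in the table) was 541 and 730 in day 0 and 934 to 1377 in allogeneic CD4 libraries, 1962 and 2691 against 1124 to 1266 in CD8 libraries, and 1084 and 1271 against 586 to 902 in Treg. In CD4 libraries this sum followed Cd22, at 131 and 142 in day 0 and 753 to 1178 in allogeneic libraries. Other markers of the list went the other way there. Ms4a1 was 61.9 and 83.6 against 9.53 to 17.6, and Cd79a 109 and 145 against 9.69 to 25.7. Cd79b was 185 and 250 against 118 to 184, and Blnk 48.9 and 88.8 against 14.6 to 35.5. Pax5 overlapped. The part of these 3 marker sums in the result was not tested. The mean normalised count per gene was 1227 to 1484 over all day 0 libraries, and 1504 to 1669 in allogeneic CD4, 1691 to 1849 in allogeneic CD8 and 1532 to 1612 in later Treg libraries. With this mean as a covariate 20 members rose and 4 fell in allogeneic CD4 cells, 22 rose and 5 fell in allogeneic CD8 cells, and 17 rose and 2 fell in Treg. The slope on gene length was 0.0717 and 0.0834 in day 0 Treg and 0.0386 to 0.0571 later, and with the length trend removed 15 members rose and 2 fell there. This slope, here and below, is that of log2(value + 1) less the gene's mean over all libraries, on log2 of its genomic span.

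The lower enzymes rose together. All 5 members of the energy-yielding later steps of glycolysis (Gapdh, Pgk1, Pgam1, Eno1 and Pkm) rose against day 0 in allogeneic CD4 cells, allogeneic CD8 cells and Treg. Tpi1, triosephosphate isomerase, which interconverts the 2 three-carbon sugars made by aldolase, had 1544 and 1446 in day 0 CD4 cells. It was 19069, 10569, 13176 and 16226 in allogeneic CD4 cells, far above both day 0 libraries in every case. The change was 3.27 (95% interval 2.67 to 3.87, adjusted p 1.57e-09). In CD8 cells Tpi1 was 2498 and 3327 at day 0 and 19573, 15391, 17816 and 22222 in allogeneic recipients, a change of 2.69. Pgk1, the phosphoglycerate kinase that makes the first ATP of the pathway, was 3144 and 2955 in day 0 CD4 cells and 13729, 9872, 12426 and 11940 in allogeneic ones. It changed by 1.97 in CD4 cells (95% interval 1.58 to 2.35, adjusted p 5.09e-09), by 1.98 in CD8 cells and by 1.67 in Treg. Those day 0 CD8 libraries held 3528 and 4723 of Pgk1 and the allogeneic ones 14758, 14235, 19095 and 16976. Treg held 3058 and 3380 at day 0 and 10904, 10020 and 9895 afterwards, so day 0 lay below every later library in all 3 cell types. Gapdh, which makes NADH, was 15124 and 21716 in day 0 CD8 cells and 108279, 93819, 111191 and 113727 in allogeneic ones, again with a wide gap. Gapdh rose by 2.23, 2.55 and 1.56 in CD4 cells, CD8 cells and Treg, Pgam1 by 1.87, 1.70 and 1.43, Eno1 by 1.14, 1.80 and 0.84, and Pkm by 1.22, 2.05 and 1.16. Eno1 has a near-identical copy in the table, Eno1b, and Gapdh and other enzymes have processed pseudogenes, so reads may be split between copies.

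Entry of glucose and its first commitment rose as well. Slc2a1, the glucose carrier GLUT1, was 1296 and 1394 in day 0 CD4 cells and 4271, 2949, 2980 and 3425 in allogeneic ones, a change of 1.32 (95% interval 0.71 to 1.93, adjusted p 0.00139), and it changed by 1.53 in CD8 cells and 1.30 in Treg. Slc2a3, the high-affinity carrier GLUT3, was 1891 and 2014 at day 0 and 7372, 6723, 6189 and 7157 in allogeneic CD4 cells. Its change was 1.81 in CD4 and 1.82 in CD8 cells, and in Treg the change of 1.15 was not called (adjusted p 0.0749). Hk2, the hexokinase induced in proliferating cells, was 25.6 and 38.3 at day 0 and 536, 378, 286 and 305 in allogeneic CD4 cells, so that every allogeneic library was several times above both day 0 libraries. Hk2 rose by 3.50 (95% interval 2.49 to 4.50, adjusted p 3.5e-06) in CD4 and by 2.34 in CD8 cells, while Hk1, the housekeeping hexokinase, changed by 0.42 and -0.03 and was not called. Of the phosphofructokinases Pfkp rose, by 1.47 and 2.12, whereas Pfkl (0.16 and 0.55) was called in neither and the muscle form Pfkm changed by -0.16 and fell by 1.24 in CD8 cells. Gpi1, glucose-6-phosphate isomerase, rose by 1.21 and 1.40, and Aldoa, an aldolase, by 1.07 and 1.75. Aldoc, another aldolase, rose in CD8 cells by 1.42 and changed by 0.40 in CD4 cells, where it was not called.

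At the lactate end the 2 dehydrogenase subunits went in opposite directions. Ldha, which favours lactate formation, was 30571 and 28158 in day 0 CD4 cells and 90402, 66604, 89558 and 93154 in allogeneic ones, and rose by 1.52 (95% interval 1.12 to 1.92, adjusted p 7.7e-07). Ldhb, the heart form, which favours pyruvate, was 1761 and 1583 at day 0 and 101, 92.8, 123 and 188 after transplantation, and fell by 3.77 (adjusted p 2.68e-08). In CD8 cells Ldha rose by 1.65 and Ldhb fell by 3.84, and in Treg Ldha rose by 1.41 and Ldhb fell by 2.30. Slc16a3, the lactate exporter MCT4, was 86.7 and 83.7 in day 0 CD4 cells and 1667, 890, 926 and 1621 in allogeneic ones. In CD8 cells it was 54.5 and 55.3 at day 0, far below the 2081, 1281, 965 and 2312 of allogeneic recipients. It rose by 3.83 in CD4 cells, 4.80 in CD8 cells and 3.26 in Treg. Slc16a1, the transporter MCT1, rose in CD4 cells by 1.57 and changed by 0.13 in CD8 cells.

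The regulators and the HIF-1 genes did not follow the enzymes as a block. Pdk2, a kinase of pyruvate dehydrogenase, was 497 and 351 in day 0 CD4 cells and 23.4, 49.5, 20.8 and 36.5 in allogeneic ones, and fell by 3.72 (adjusted p 8.49e-09). It also fell in CD8 cells, by 2.25, and in Treg, from 327 and 328 to 53.6, 44.5 and 41.0, where it fell by 2.80. Pdk1 was 7858 and 7990 at day 0 and 2294, 1389, 1651 and 2054 in allogeneic CD4 cells, and fell by 2.13 (adjusted p 0.000139). In CD8 cells Pdk1 fell by 1.98, and in Treg its change of -1.02 was not called. Pdk3, another kinase of the same enzyme, rose by 1.26 and 1.20 in allogeneic CD4 and CD8 cells. Pfkfb3 and Pfkfb4 set the level of the activator of phosphofructokinase; Pfkfb3 was not called in CD4 cells, CD8 cells or Treg, and Pfkfb4 fell in CD4 cells by 1.71. Of the 7 HIF-1 genes, Hif1a and Egln3 rose in allogeneic CD4 cells (2.55 and 2.38), allogeneic CD8 cells (2.37 and 2.22) and Treg (1.92 and 1.31). Egln1 was called in CD8 cells at 1.87, with day 0 CD8 libraries of 1270 and 252 that differed widely from each other. Without day 0 replicate JL027, the lower one, Egln1 changed by 0.71 and was not called (adjusted p 0.304). P4ha1, a collagen hydroxylase, fell in CD4 cells by 1.04. Bnip3 changed by 0.01 and 0.05 in allogeneic CD4 and CD8 cells, and Mxi1, a Myc antagonist, by -0.49 and 0.30, none of them called. Vegfa, the vascular growth factor, was at most 129 in any library and at most 35.8 outside CD4 syngeneic replicate JL019-2, and was called in none of the comparisons with day 0.

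**Figure D1:**
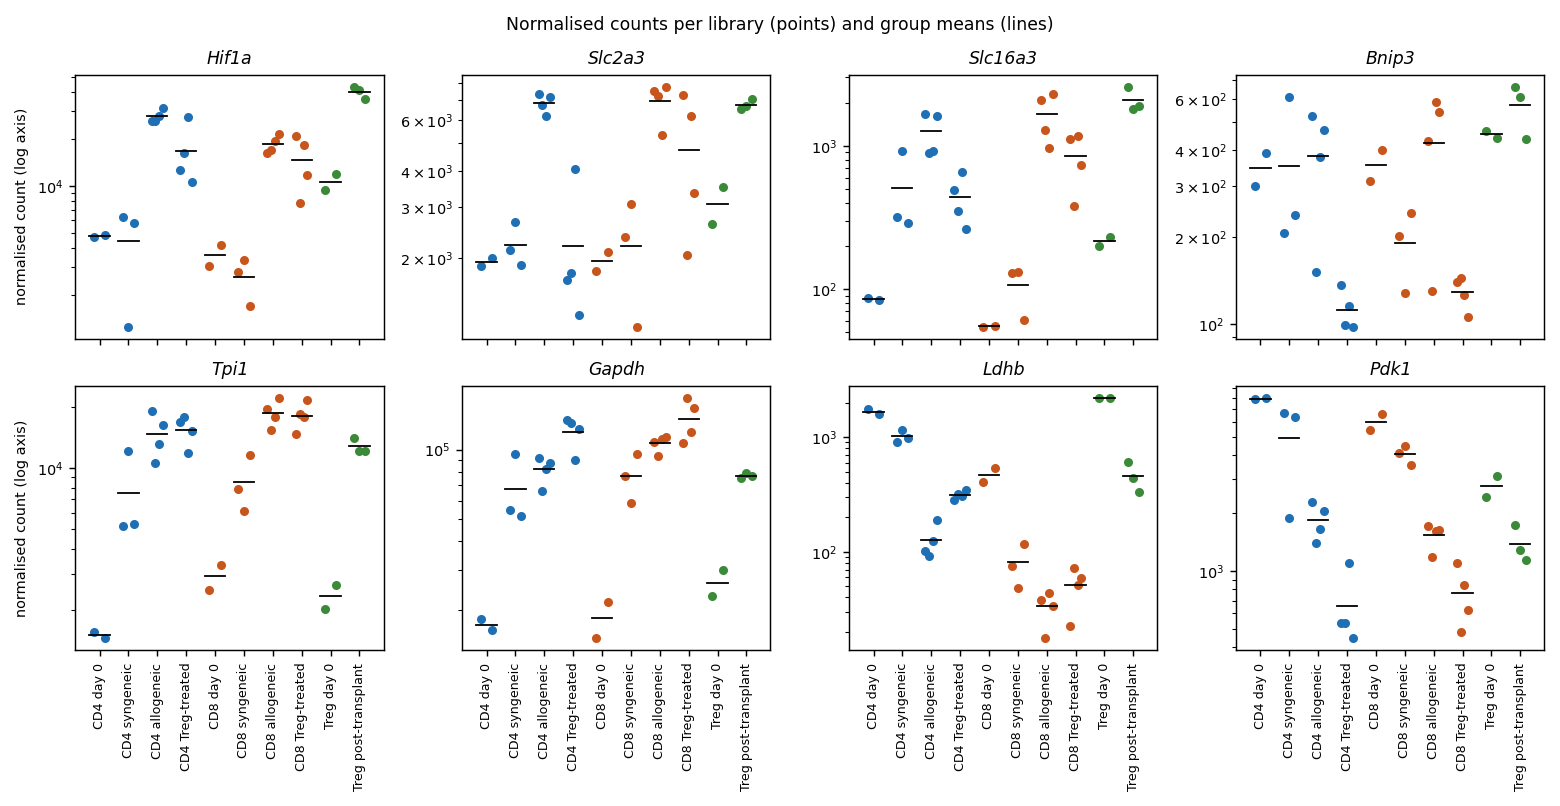
Normalised counts on a log axis (vertical) for 8 members in each of the 10 groups (horizontal). Points are libraries and lines are group means. Tpi1 and Gapdh lie above day 0 in every group recovered after transplantation, while Hif1a lies at or above 16295 in all libraries of allogeneic recipients without Treg and at or below 6314 in all syngeneic ones.

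In syngeneic hosts 9 of the 20 steps rose against day 0 in CD4 cells and 11 in CD8 cells, and the Hif1a change was not called in either. The myeloid sum was 1168 and 1987 in day 0 and 80164 to 3622462 in syngeneic CD4 libraries, and 5586 and 6013 against 38481 to 61840 in CD8 libraries, with 9 of 10 markers called higher in CD4 and 2 in CD8 cells. Erythroid markers summed to 748 and 1467 in day 0 and 4714 to 468259 in syngeneic CD4 libraries (4 of 8 called higher), and to 30882 and 35168 against 3266 to 11123 in CD8 libraries (3 called lower). The B cell sum was 1962 and 2691 in day 0 and 3272 to 4070 in syngeneic CD8 libraries, where 1 of the 6 markers was called higher and 4 lower. The part of these sums was not tested. The mean normalised count was 1280 and 1360 against 1452 to 2033 in CD4 libraries, and 1227 and 1484 against 1624 to 2119 in CD8 libraries. As a covariate it left 12 members called higher and 2 lower in CD4 cells, and 11 higher and 4 lower in CD8 cells. In CD8 libraries the slope on gene length was 0.0117 and 0.0582 at day 0 and -0.105 to -0.00831 in syngeneic hosts, and with the length trend removed 13 members rose and 2 fell. In syngeneic CD4 cells 10 members rose against day 0 (9.9% of all genes) and 1 fell (3.13%). In syngeneic CD8 cells 13 rose (13% of all genes) and 2 fell (11.3%). The median over members was 0.36 and 0.55, where all genes had -0.04 and -0.10. Tpi1 (2.22 and 1.51), Gapdh (1.90 and 2.06), Pgk1 (1.49 and 1.36), Pgam1 (1.67 and 1.93), Eno1 (0.79 and 1.60), Ldha (0.96 and 1.41) and Gpi1 (1.17 and 1.29) rose in syngeneic CD4 and CD8 cells alike. Gapdh, the member with the lowest p in syngeneic CD8 cells, was 76472, 58643 and 96002 there, above both day 0 libraries. In syngeneic CD4 cells Gapdh was 54822, 95386 and 51437 against 18230 and 16372 at day 0, with JL019-2 the highest. Eno1 was 77330, 58387 and 96087 in syngeneic and 21455 and 28979 in day 0 CD8 cells. Slc2a3 changed by 0.18 and 0.07 and Hif1a by -0.42 and -0.50, and none of these 4 values was called. The CD4 value of Hif1a changed direction without CD4 syngeneic replicate JL019-2, to 0.34, and was not called (adjusted p 0.705). Of the 7 HIF-1 genes none was called in syngeneic CD4 cells, and in CD8 cells Mxi1 fell by 1.31. Egln1 was called in CD8 cells at 1.51, and without day 0 replicate JL027 it changed by 0.35 and was not called (adjusted p 0.651). The change of Mxi1 was not called without that library either. Without CD4 syngeneic replicate JL019-2 the CD4 counts were 9 higher and 1 lower, and Pdk3, which rose with it, was not called (adjusted p 0.0775). With day 0 and syngeneic CD4 libraries alone in the model no member was called.

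Promoters are shown here for a lower glycolysis enzyme that rose in all 5 comparisons with day 0, a transporter and a mitophagy receptor that fell with Treg treatment in CD4 cells as described further on, and Ldhb, the member with the largest fall against day 0 in allogeneic CD4 and allogeneic CD8 cells. Each is the 250 bases before the RefSeq start site (GRCm38.p6), 5′ to 3′ in the direction of the gene, with the HIF-1 core motifs ACGTG and GCGTG in capitals, on the printed strand or as their reverse complements CACGT and CACGC. Pgk1 lies at chrX:106186850-106187099 (plus strand), Slc2a1 at chr4:119108495-119108744 (plus strand), Bnip3 at chr7:138909507-138909756 (minus strand) and Ldhb at chr6:142507958-142508207 (minus strand), all just outside the annotated gene.
Pgk1: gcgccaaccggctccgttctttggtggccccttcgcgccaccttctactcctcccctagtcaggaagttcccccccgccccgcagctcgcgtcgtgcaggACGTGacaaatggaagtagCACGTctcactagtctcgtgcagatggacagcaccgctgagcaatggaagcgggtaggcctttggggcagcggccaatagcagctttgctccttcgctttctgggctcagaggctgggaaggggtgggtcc
Slc2a1: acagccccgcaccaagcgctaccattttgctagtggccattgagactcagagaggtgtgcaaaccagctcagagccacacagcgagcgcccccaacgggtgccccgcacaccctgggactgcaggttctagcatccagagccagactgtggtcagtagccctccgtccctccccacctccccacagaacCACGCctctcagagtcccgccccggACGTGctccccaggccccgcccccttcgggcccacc
Bnip3: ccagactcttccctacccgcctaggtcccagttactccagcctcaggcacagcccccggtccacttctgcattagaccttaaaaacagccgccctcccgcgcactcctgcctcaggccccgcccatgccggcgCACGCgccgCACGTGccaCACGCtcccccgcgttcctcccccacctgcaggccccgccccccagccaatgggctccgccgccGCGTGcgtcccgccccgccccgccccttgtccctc
Ldhb: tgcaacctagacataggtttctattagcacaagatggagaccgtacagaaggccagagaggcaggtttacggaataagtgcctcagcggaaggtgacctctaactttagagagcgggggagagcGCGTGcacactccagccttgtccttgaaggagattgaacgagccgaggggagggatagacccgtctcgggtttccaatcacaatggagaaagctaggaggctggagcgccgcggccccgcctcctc
Pgk1 holds 2 ACGTG matches, 150 and 131 bases before the start. Slc2a1 holds 1 ACGTG match 36 bases before the start and 1 GCGTG match 61 bases before it. In Bnip3 the matches on both strands overlap in the palindrome CACGTG, the E-box also bound by Myc and related factors, and Ldhb holds no ACGTG and 1 GCGTG match. Motif and direction did not go together in all members. Tpi1, which rose in allogeneic CD4 and CD8 cells, holds neither motif, and Pdk2, which fell in both, holds CACGTG.

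Over the 31 members with an entry in the promoter table (Slc2a3 is not among them), ACGTG was present on either strand in 20 (64.5%), against 2755 of 11718 genes (23.5%). A gene counted as holding a motif if any of its promoter windows did. Some genes have several start sites and so several windows, and the shares are not corrected for that. GCGTG was present in 20 members (64.5%) and 45.6% of genes, and either motif in 29 members (93.5%) and 56.7% of genes. The overlapping E-box CACGTG was present in 7 members (22.6%) and 9.0% of genes. The median share of G and C was 62.8% in the members' promoters and 58.4% in all promoters, and its part in these shares was not tested. A match is a run of letters and not evidence of binding.

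The second question was how cells in an allogeneic host differed from those in a syngeneic host at the same time. In CD4 cells 9 members were higher in allogeneic hosts (6.69% of all genes) and 4 lower (7.91%), and in CD8 cells 11 were higher (10.4%) and 3 lower (10.7%). Most of the CD4 calls were lost with only the groups compared in the model, as given in the closing section. The members' median change was 0.48 and 0.43, where that over all genes was 0 and 0.02. The summed myeloid markers moved with this comparison in both cell types. They were 80164 to 3622462 in syngeneic and 5581 to 11270 in allogeneic CD4 libraries, and 38481 to 61840 and 6659 to 10764 in CD8 libraries. Of the 10 markers 8 were called lower in allogeneic CD4 cells, and 4 lower and 2 higher in CD8 cells, with Adgre1 at 0 in 1 allogeneic CD8 library. In CD8 libraries the B cell sum was 3272 to 4070 in syngeneic and 1124 to 1266 in allogeneic hosts, with 1 of 6 markers called lower and Pax5 at 0 in 1 library of each group. The part of both sums in the result was not tested. Hif1a was among the members with the lowest p in both cell types, and of the 5 lower glycolysis enzymes none was called in CD4 cells and Pgk1 and Pkm in CD8 cells.

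Hif1a was 6314, 1250 and 5752 in syngeneic CD4 cells and 26055, 26151, 27915 and 31675 in allogeneic ones. Every allogeneic library was far above every syngeneic one, and the change was 2.97 (95% interval 2.15 to 3.78, adjusted p 5.09e-06). It was 2.21 without CD4 syngeneic replicate JL019-2, the lowest (adjusted p 2.06e-05). In CD8 cells Hif1a was 2792, 3359 and 1709 in syngeneic and 16295, 16996, 19484 and 21473 in allogeneic recipients, a change of 2.87 (95% interval 2.06 to 3.68, adjusted p 3.78e-06). Egln3, a hydroxylase that is itself a HIF-1 target, was 93.4, 261 and 101 in syngeneic CD4 cells and 378, 292, 347 and 400 in allogeneic ones, a change of 1.38. In CD8 cells Egln3 was 15.4, 25.2 and 14.1 against 216, 130, 161 and 230, a change of 3.28 (95% interval 2.58 to 3.97, adjusted p 2.98e-08). Mxi1 rose by 1.61 in CD8 cells and changed by -0.30 in CD4 cells. Bnip3 changed by 0.15 in CD4 and 0.98 in CD8 cells, P4ha1 by -0.41 and -0.24, and Egln1 by 0.89 and 0.36, with none of them called.

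Among the transporters Slc2a3 was 2137, 2669 and 1893 in syngeneic and 7372, 6723, 6189 and 7157 in allogeneic CD4 cells, a change of 1.63, and it changed by 1.75 in CD8 cells. Slc2a1 rose by 1.26 in CD4 cells, and its CD8 change of 0.66 was not called (adjusted p 0.0728). Slc16a3 was 129, 131 and 60.5 in syngeneic CD8 cells and 2081, 1281, 965 and 2312 in allogeneic ones, a change of 3.94 (95% interval 3.09 to 4.80, adjusted p 4.39e-08), and it changed by 1.47 in CD4 cells. Of the upper enzymes Aldoa (0.71 and 0.79) and Tpi1 (1.05 and 1.18) rose in both cell types, Pfkp rose in CD4 cells by 1.37 and Hk2 in CD8 cells by 1.46. Ldhb was 913, 1157 and 975 in syngeneic CD4 cells and 101, 92.8, 123 and 188 in allogeneic ones, so it fell by 3.05 (adjusted p 4.5e-07), and in CD8 cells it fell by 1.23. Ldha rose by 0.56 in CD4 cells, and without replicate JL019-2 of the CD4 syngeneic group it was not called (0.47, adjusted p 0.125).

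Of the 5 flux regulators 3 fell in CD4 cells, and 2 fell and 1 rose in CD8 cells. Pdk1 was 6624, 1878 and 6341 in syngeneic CD4 cells and 2294, 1389, 1651 and 2054 in allogeneic ones, so it fell by 1.24. In CD8 cells Pdk1 was 4108, 4493 and 3544 against 1710, 1176, 1610 and 1634, so it fell by 1.41. The library JL019-2 of the syngeneic CD4 group lay within the allogeneic range, and the CD8 groups were apart. Pdk2 was 151, 92.4 and 173 in syngeneic CD4 cells, above all allogeneic values of 23.4, 49.5, 20.8 and 36.5. Pdk2 fell by 2.09 in CD4 and 1.59 in CD8 cells, Pfkfb4 fell by 2.06 in CD4 cells, and Pdk3 rose by 0.59 in CD8 cells. Pdk1 is a HIF-1 target by background knowledge and went against Hif1a here. Without CD4 syngeneic replicate JL019-2 the CD4 counts were 10 higher and 5 lower: Pgk1, Pgam1 and P4ha1 were added and Ldha was lost. Without it Pdk1 fell by 1.84 and Pfkfb4 by 1.31 in CD4 cells, and Mxi1, not called either way, changed by 0.22.

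CD4 and CD8 cells differed in this response for 4 members by a direct test of the difference (2.69% of all genes higher in that test, 1.96% lower). The CD8 change exceeded the CD4 change by 2.47 for Slc16a3 (adjusted p 0.0117), 1.91 for Mxi1 (adjusted p 0.00486), 1.90 for Egln3 (adjusted p 0.0181) and 1.82 for Ldhb (adjusted p 0.0294). Without CD4 syngeneic replicate JL019-2, Egln3 (1.43, adjusted p 0.0686) and Ldhb (1.72, adjusted p 0.0661) did not pass, and Slc16a3 (1.94, adjusted p 0.0474) and Mxi1 (1.39, adjusted p 0.0126) did. Without CD8 syngeneic replicate JL019-1, or without CD8 syngeneic replicate JL027, 2 members passed as well. Within allogeneic recipients CD8 cells differed from CD4 cells in 1 member upward (3.05% of all genes) and 1 downward (3.09%). Ldhb was 38.2, 17.7, 44.0 and 33.9 in CD8 and 101, 92.8, 123 and 188 in CD4 cells, with no overlap and a change of -1.90 (adjusted p 0.000315), and Pdk2 was higher in CD8 cells by 1.06. With the CD4 and CD8 libraries of 1 recipient held together as a block, 4 members passed in this comparison, and 1 passed without CD4 allogeneic replicate JL019-1 or JL027-1, or without CD8 allogeneic replicate JL019-1, JL019-2 or JL027-2. The mean normalised count was 1691 to 1849 in allogeneic CD8 and 1504 to 1669 in allogeneic CD4 libraries, and as a covariate it also gave 4 members. The slope on gene length was -0.0179 to 0.0136 in the CD8 and 0.0194 to 0.0451 in the CD4 libraries.

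**Figure D2:**
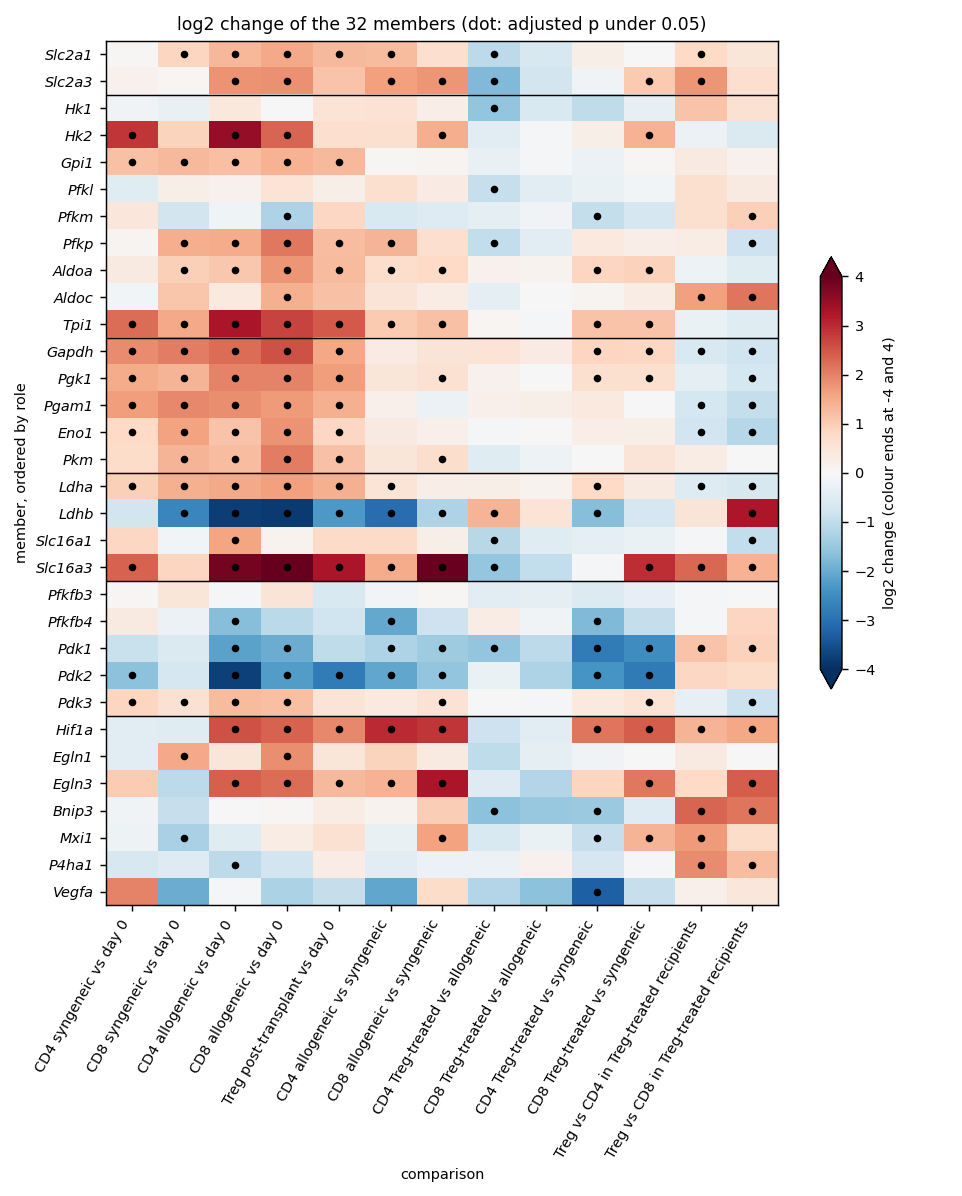
Colour gives the log2 change of each of the 32 members (rows, ordered by role) in 13 comparisons (columns), with ends at -4 and 4, and a dot marks an adjusted p under 0.05. The 5 lower glycolysis enzymes, from Gapdh to Pkm, have a dot in each of the first 5 columns apart from Pkm in syngeneic CD4 cells, and among the allogeneic against syngeneic columns only for Pgk1 and Pkm in CD8 cells.

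A further question was whether cells in Treg-treated recipients differed from those in allogeneic recipients without Treg. In CD4 cells 9 members were lower (11.5% of all genes) and 1 was higher (10.7%), with a median of -0.42 where that over all genes was 0. Of the 20 steps 7 were lower and 1 higher: both glucose carriers, 3 of 9 upper enzymes and both lactate transporters fell, and the 5 lower glycolysis enzymes and Ldha were not called. Since these are bulk values, fewer cells of a type and less RNA per cell cannot be told apart here or in the other comparisons.

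Slc2a3 was 1683, 1777, 4073 and 1281 in Treg-treated and 7372, 6723, 6189 and 7157 in allogeneic CD4 cells. All 4 Treg-treated libraries lay below all allogeneic ones, with replicate JL027-1 the nearest, and Slc2a3 fell by 1.78 (95% interval -2.46 to -1.11, adjusted p 0.00348). Slc2a1 was 1738, 1882, 1754 and 1234 against 4271, 2949, 2980 and 3425, so it fell by 1.05 (adjusted p 0.0105), again with no overlap. Hk1 fell by 1.59, Pfkp by 0.99 and Pfkl by 0.92. The export transporters Slc16a3 and Slc16a1 fell by 1.55 and 1.10. Slc16a3 was 493, 353, 656 and 263 in Treg-treated and 1667, 890, 926 and 1621 in allogeneic libraries, with the groups apart. Pdk1 was 535, 536, 1093 and 446 against 2294, 1389, 1651 and 2054, so it fell by 1.57 (95% interval -2.22 to -0.92, adjusted p 0.00635). Bnip3 was 136, 99.2, 115 and 97.7 against 524, 151, 379 and 471, so it fell by 1.63 (adjusted p 0.0125), with allogeneic replicate JL019-2 the closest.

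Ldhb, which had fallen most in allogeneic hosts, was 282, 321, 307 and 343 in Treg-treated CD4 cells and rose by 1.36 (95% interval 0.69 to 2.02, adjusted p 0.0118) against the allogeneic libraries, which lay below all of these. Among the lower enzymes Gapdh changed by 0.54 (adjusted p 0.052), Pgk1 by 0.17, Pgam1 by 0.21, Eno1 by -0.07 and Pkm by -0.48, and Ldha changed by 0.23. Hk2 changed by -0.41, Gpi1 by -0.29, Pfkm by -0.36, Aldoa by 0.16, Aldoc by -0.38 and Tpi1 by 0.08. In the regulators Pdk2 changed by -0.26, Pdk3 by -0.02, Pfkfb3 by -0.43 and Pfkfb4 by 0.29. Hif1a was 12638, 16132, 27431 and 10579 in Treg-treated and 26055, 26151, 27915 and 31675 in allogeneic CD4 cells, a change of -0.84 (95% interval -1.59 to -0.08) that was not called (adjusted p 0.0972). The other HIF-1 genes not called were Egln1 (-1.02, adjusted p 0.0564), Mxi1 (-0.61), Egln3 (-0.52), P4ha1 (-0.24) and Vegfa (-1.18).

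The library that came nearest to the allogeneic ones was Treg-treated replicate JL027-1, which was the highest of its group in 6 of the 9 members that fell. Without it 11 members fell, with Hif1a (-1.11, adjusted p 0.0241) and Egln1 (-1.11) added, and Gapdh rose by 0.67. Without Treg-treated replicate JL019-2, 4 members fell, namely Slc2a1, Slc2a3, Pdk1 and Bnip3, and without Treg-treated replicate JL027-2 also 4. All 9 that fell, and Ldhb, went in the same direction in each label prefix (JL019 and JL027).

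Other features of the libraries moved with this comparison. The summed myeloid markers (10 genes) were 5581 to 11270 in allogeneic and 23954 to 87019 in Treg-treated CD4 libraries, where 2 of the 10 were called higher and 1 lower, and no defining marker was at 0 in either. The erythroid sum (8 genes) was 460 to 10752 and 5523 to 62607, with none called. Their part in the result was not tested. The mean normalised count per gene was 1504 to 1669 in allogeneic and 1608 to 2118 in Treg-treated libraries, and with this mean as a covariate 4 members fell and none rose, again Slc2a1, Slc2a3, Pdk1 and Bnip3. The slope on gene length was 0.0194 to 0.0451 in allogeneic and -0.121 to 0.0161 in Treg-treated libraries. Treg-treated replicate JL027-1 had the 0.0161, and the other libraries of its group -0.0986, -0.121 and -0.0689. Cd4 was 17590 in JL027-1 and 9108, 8722 and 9370 in those others, against 16710 to 21480 in allogeneic libraries. The part of these features in the result was tested only by the alternatives given here. Genomic span had a Spearman correlation of -0.40 with the change over the 32 members, a description over genes that share the same libraries. The 9 members that fell spanned 10.5 to 111.1 kb (median 28.6) and the 22 not called 3.6 to 82.6 kb (median 23.9). With the length trend removed from each library 9 members fell and 1 rose.

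**Figure D3:**
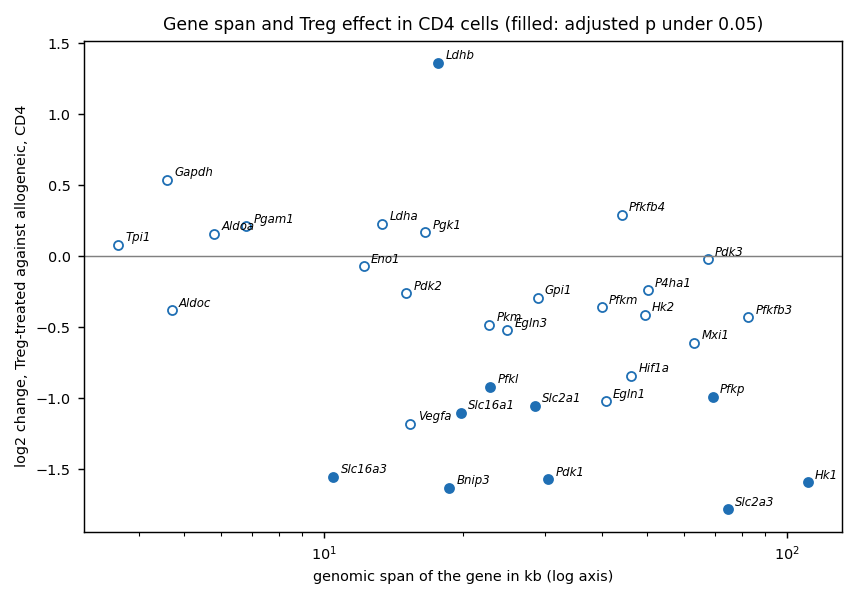
Genomic span of each member in kb on a log axis (horizontal) against its log2 difference, CD4 cells of Treg-treated less those of allogeneic recipients (vertical), with filled points at an adjusted p under 0.05. Members that fell lie between 10.5 and 111.1 kb, and of the 5 members of 3.6 to 6.8 kb, Tpi1, Gapdh, Aldoa and Pgam1 lie at or above 0.08 and Aldoc at -0.38.

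In CD8 cells no member passed in the same comparison (0.0478% of all genes higher, 0.0179% lower), and limma gave 7 members an unadjusted p under 0.05 (6.18% of all genes higher and 4.88% lower, 11.1% in all), all of them lower: Slc2a1 (-0.63), Slc2a3 (-0.72), Slc16a3 (95% interval -1.79 to -0.21), Pdk1 (-1.06), Pdk2 (-1.23), Egln3 (-1.17) and Bnip3 (-1.51). Bnip3 was 140, 144, 126 and 106 in Treg-treated and 431, 130, 589 and 540 in allogeneic CD8 cells, so that allogeneic replicate JL019-2 lay within the Treg-treated range. Egln3 was 68.8, 75.1, 118 and 65.5 against 216, 130, 161 and 230, with no overlap (adjusted p 0.144). Slc2a3 was 7294, 2053, 6158 and 3372 against 7564, 7250, 5309 and 7805, a wide overlap. Treg-treated replicate JL019-2 was the lowest for Slc2a1, Slc2a3, Slc16a3, Pdk1, Hif1a and Hk1, and without it no member passed either, with Bnip3 at -1.57. That library had a mean normalised count of 2385 (others of its group 1761 to 1968), a slope on gene length of -0.123 (others -0.0558 to 0.0149) and the highest myeloid sum of its group, 31724. Allogeneic CD8 libraries had means of 1691 to 1849 and slopes of -0.0179 to 0.0136. Without CD8 allogeneic replicate JL019-2, or without CD8 Treg-treated replicate JL019-1, 1 member passed. The summed myeloid markers were 6659 to 10764 in allogeneic and 11751 to 31724 in Treg-treated CD8 libraries, with Adgre1 at 0 in 1 allogeneic library, and the B cell sum was 1124 to 1266 against 1330 to 2121, with no marker called. The part of both sums was not tested. Set against the CD4 change in a direct test, the CD8 change differed for no member (0% of all genes higher, 0.00597% lower), with 2 members, Slc2a3 (1.07) and Pdk2 (-0.96), at an unadjusted p under 0.05 (1.15% of all genes higher and 1.42% lower, 2.57% in all). The CD8 and CD4 responses are therefore not shown to differ for any member, nor shown to be alike. The interval of the difference for Slc2a3 was 0.11 to 2.02, and for Bnip3 it was -1.04 to 1.27.

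**Figure D4:**
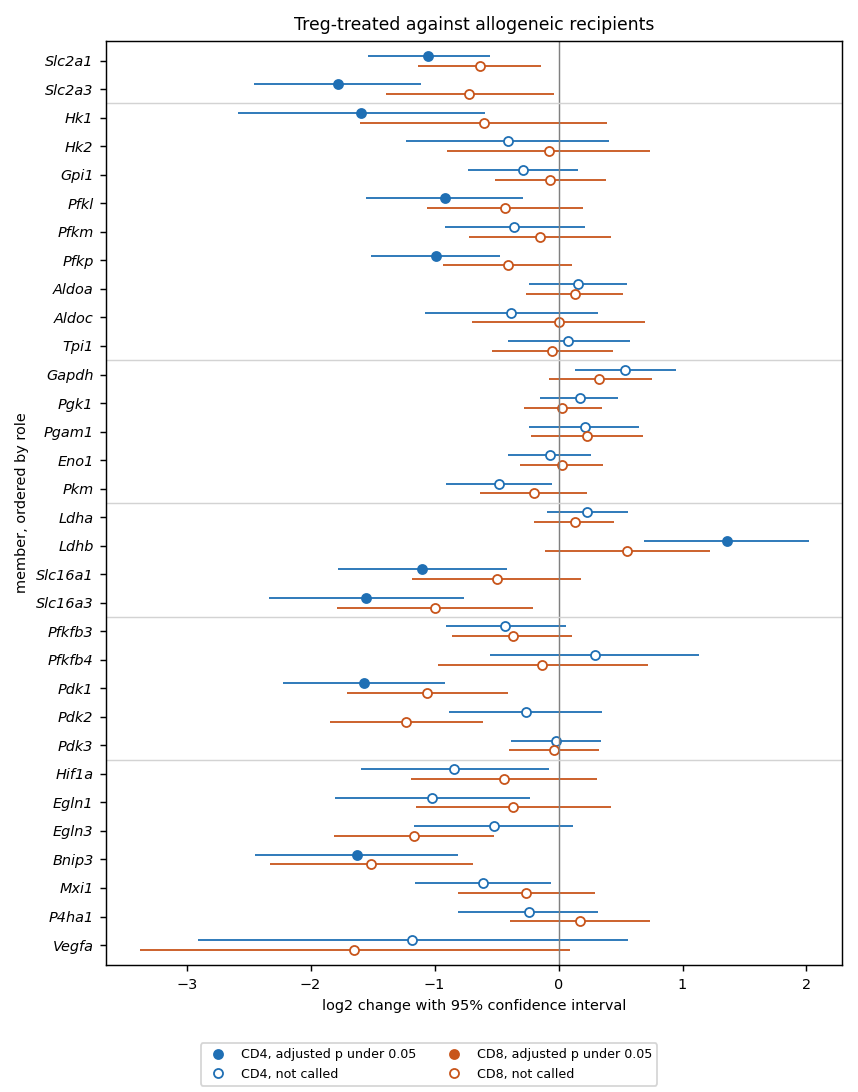
Log2 change with its 95% interval (horizontal) for each member (vertical, ordered by role) between Treg-treated and allogeneic recipients, in CD4 cells (blue) and CD8 cells (orange), with filled points at an adjusted p under 0.05. Slc2a3, Bnip3, Hk1 and Pdk1 lie lowest among the CD4 values that passed, and no CD8 value passed.

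Against syngeneic hosts, Treg-treated CD4 cells were higher in 6 members (8.23% of all genes) and lower in 8 (8.43%). With only the groups compared in the model most of these CD4 calls were lost, as given in the closing section. Treg-treated CD8 cells were higher in 11 (9.56%) and lower in 2 (8.63%). The myeloid sum was 80164 to 3622462 in syngeneic and 23954 to 87019 in Treg-treated CD4 libraries, and 38481 to 61840 against 11751 to 31724 in CD8 libraries, with 7 of 10 markers called lower in CD4 cells, and 2 lower and 1 higher in CD8 cells. In CD8 libraries the B cell sum was 3272 to 4070 against 1330 to 2121, with 1 of 6 markers called lower. The part of these sums in the result was not tested. In CD4 cells Tpi1 (1.14), Gapdh (0.87), Aldoa (0.87), Ldha (0.79), Pgk1 (0.64) and Hif1a (2.13) were higher. Slc2a1 (0.22) and Slc2a3 (-0.15) were not called, and their Treg-treated libraries had overlapping values with the syngeneic ones. In CD8 cells Slc2a3 (1.04), Hk2 (1.39), Aldoa (0.92), Tpi1 (1.13), Gapdh (0.83), Pgk1 (0.65), Slc16a3 (2.94), Pdk3 (0.55), Hif1a (2.43), Egln3 (2.11) and Mxi1 (1.35) were higher. Pdk1 and Pdk2 were lower than syngeneic in both cell types. Pdk1 was 535, 536, 1093 and 446 in Treg-treated CD4 cells, so it fell by 2.81 (adjusted p 1.28e-06), and in CD8 cells it was 1101, 479, 848 and 624, so it fell by 2.47 (adjusted p 4.17e-06). Pdk2 fell by 2.36 and 2.82, and in CD8 cells its 44.6, 24.7, 26.3 and 19.0 lay far below the 193, 224 and 180 of syngeneic libraries. The other CD4 members lower than syngeneic were Pfkm, Ldhb, Pfkfb4, Bnip3, Mxi1 and Vegfa. Without CD4 syngeneic replicate JL019-2 the CD4 counts were 9 higher and 5 lower, and 5 members that were lower with it were not called: Pfkm (-0.72, adjusted p 0.0958), Pfkfb4 (-1.01, adjusted p 0.0553), Bnip3 (adjusted p 0.0966), Mxi1 (-0.39, adjusted p 0.253) and Vegfa (-2.53, adjusted p 0.0598). With all libraries these had changes of -0.95, -1.77, -1.48, -0.91 and -3.26. Called without it were Pgam1 (0.82), Pdk3 (0.57), Egln3 (1.33), Hk1 (-1.59) and P4ha1 (-1.17). Without it Hif1a rose by 1.37 and Pdk1 fell by 3.40. The comparisons with allogeneic and with syngeneic hosts share the Treg-treated libraries, so their values are set side by side and not combined.

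The last comparison set Treg against the CD4 and CD8 cells of Treg-treated recipients. Against CD4 cells 9 members were higher in Treg (13.9% of all genes) and 4 lower (16.1%), and against CD8 cells 9 were higher (17.6%) and 8 lower (18.7%). Of the 7 HIF-1 genes 4 were higher than in CD4 cells and none lower, and of the 5 lower glycolysis enzymes none was higher and 3 were lower. Against CD8 cells the counts were 4 and 0, and 0 and 4.

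Hif1a was 43175, 40762 and 36037 in Treg, above all CD4 and CD8 libraries of the same treatment, where the highest was 27431. It was higher than in CD4 cells by 1.35 (adjusted p 0.0122) and than in CD8 cells by 1.55 (adjusted p 0.00341). Bnip3 was 664, 613 and 438 against 136, 99.2, 115 and 97.7 in CD4 cells, a difference of 2.33 (95% interval 1.45 to 3.21, adjusted p 0.000307), and of 2.13 against CD8 cells. P4ha1 was 2812, 2558 and 1858 against 656, 594, 995 and 446 in CD4 cells, a difference of 1.88 (adjusted p 5.82e-05). The Treg libraries lay above every CD4 library for both genes. Mxi1 was 1798, 1510 and 1216 in Treg and 489, 474, 569 and 345 in CD4 cells. Mxi1 was higher by 1.69 than in CD4 cells and Egln3 by 2.41 than in CD8 cells. Slc2a3 (1.76), Slc2a1 (0.81), Slc16a3 (2.31), Aldoc (1.64) and Pdk1 (1.15) were also higher than in CD4 cells.

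Eno1, enolase, was 42897, 38413 and 38152 in Treg and 79626, 75436, 57256 and 62157 in CD4 cells, with no overlap and a difference of -0.77 (adjusted p 0.00196), and of -1.15 against CD8 cells. Gapdh (-0.62), Pgam1 (-0.69) and Ldha (-0.53) were lower than in CD4 cells, and with Eno1, Pgk1, Pfkp, Slc16a1 and Pdk3 they were also lower than in CD8 cells. Ldhb was 605, 443 and 331 in Treg and 22.4, 72.5, 51.0 and 58.6 in CD8 cells, a difference of 3.22 (adjusted p 7.07e-08), and Pfkm was 0.94 higher. Without Treg replicate JL019-1, 7 members were higher and 1 lower than in CD4 cells, and with the library mean as a covariate 6 were higher and 1 lower. The summed myeloid markers were 2090 to 7245 in Treg, 23954 to 87019 in CD4 and 11751 to 31724 in CD8 libraries of Treg-treated recipients, with 1 of 10 called higher and 4 lower in Treg against each and none at 0, and their part was not tested. The B cell sum was 586 to 902 in Treg and 1330 to 2121 in CD8 libraries, with 1 of 6 markers called higher and 1 lower and Pax5 at 0 in 2 CD8 libraries, and its part was not tested. Treg libraries had a mean normalised count of 1532 to 1612, CD4 Treg-treated libraries 1608 to 2118 and CD8 Treg-treated libraries 1761 to 2385. With this mean as a covariate 7 members were higher and 6 lower than in CD8 cells. The slope on gene length was 0.0386 to 0.0571 in Treg, -0.121 to 0.0161 in CD4 and -0.123 to 0.0149 in CD8 libraries, and with the length trend removed 10 members were higher and 3 lower than in CD4 cells, and 9 higher and 8 lower than in CD8 cells. Gapdh and Pgam1 were not called with the length trend removed.

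**Figure D5:**
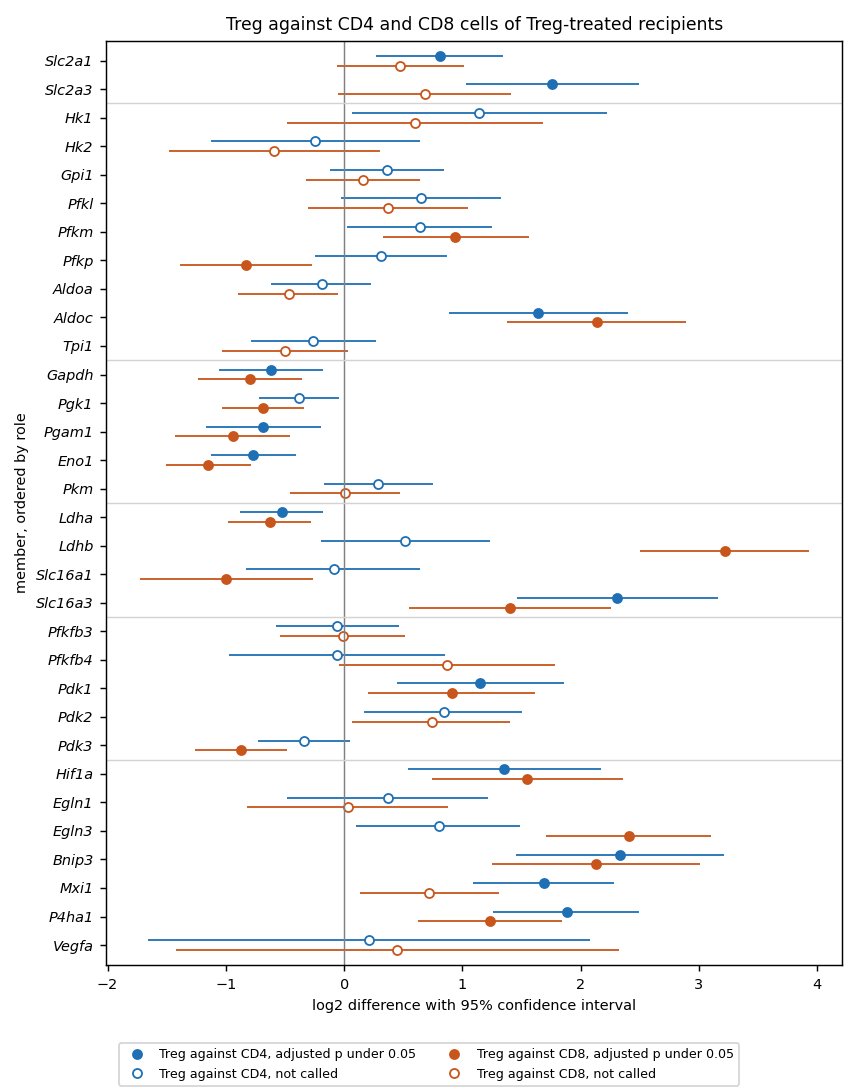
Log2 difference with its 95% interval (horizontal) for each member (vertical, ordered by role) between Treg and CD4 cells (blue) or CD8 cells (orange) of Treg-treated recipients, with filled points at an adjusted p under 0.05. Bnip3, P4ha1, Mxi1 and Hif1a are filled on the right for CD4, and Gapdh, Pgam1, Eno1 and Ldha on the left.

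Before transplantation Treg and CD4 cells differed in 1 member. Hk2 was higher in Treg (2.54% of all genes; 1.34% were lower), at 133 and 156 against 25.6 and 38.3 in CD4 cells, a difference of 2.16 (adjusted p 0.0249). It was not called when any 1 of the 4 libraries was left out. Hif1a (1.15), Egln3 (1.34) and Pdk1 (-1.52, adjusted p 0.054) were not called. With libraries that share a recipient, or at day 0 a label prefix, treated as a block, 3 members passed. The myeloid sum was 2563 and 3409 in day 0 Treg and 1168 and 1987 in day 0 CD4 libraries. The B cell sum was 1084 and 1271 against 541 and 730, and the erythroid sum 130 and 455 against 748 and 1467. The part of these marker sums was not tested. The slope on gene length was 0.0717 and 0.0834 against 0.0327 and 0.0517, and the mean normalised count overlapped.

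The remaining library values of the uptake and enzyme genes complete these comparisons, given as levels. Slc2a1, the main glucose transporter of activated T cells, was 1563, 1081 and 1635 in syngeneic CD4 cells. In CD8 cells Slc2a1 was 1023 and 1197 at day 0, 2267, 1798 and 1995 in syngeneic, 4103, 3273, 2073 and 3704 in allogeneic and 3199, 1315, 2126 and 1985 in Treg-treated hosts. In Treg it was 968 and 1386 at day 0 and 3877, 2728 and 2196 later. All later CD8 and Treg libraries thus lay above both day 0 libraries of their cell type, while allogeneic and syngeneic CD8 libraries overlapped. Slc2a3 was 1811 and 2109 in day 0 and 2378, 3090 and 1165 in syngeneic CD8 cells, which overlapped. In Treg it was 2625 and 3513 at day 0 and 6510, 6696 and 7044 later, with no overlap. Hk2, the inducible hexokinase, showed all later libraries above all day 0 libraries of the same cell type. It was 222, 510 and 110 in syngeneic and 287, 338, 221 and 261 in Treg-treated CD4 cells. In CD8 cells Hk2 was 114 and 44.7 at day 0, 127, 158 and 115 in syngeneic, 340, 474, 162 and 685 in allogeneic and 445, 266, 474 and 258 in Treg-treated hosts, and in later Treg it was 245, 267 and 187. Ldha, the lactate dehydrogenase subunit that favours lactate production, had the same separation from day 0. It was 62902, 50495 and 58552 in syngeneic and 101016, 100927, 96053 and 98000 in Treg-treated CD4 cells, the latter above all allogeneic CD4 libraries. In CD8 cells Ldha was 26202 and 36479 at day 0, 84413, 66077 and 98740 in syngeneic, 91966, 87088, 107912 and 103516 in allogeneic and 84235, 99406, 113095 and 134482 in Treg-treated hosts. In Treg it was 25096 and 26668 at day 0 and 69576, 69214 and 66833 later. Pdk1, a kinase that restrains pyruvate dehydrogenase, lay lower after transplantation than at day 0 in all CD8 and Treg libraries. Its day 0 CD8 values were 5396 and 6616, and in Treg it was 2436 and 3122 at day 0 and 1726, 1281 and 1145 later.

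At day 0 the libraries with the highest Hif1a, Egln3 and Bnip3 levels were those of Treg, and the differences from CD4 cells were not called. Hif1a was 4681 and 4837 in CD4, 3056 and 4170 in CD8 and 9431 and 11824 in Treg libraries at day 0. Egln3 was 48.5 and 91.6, 26.1 and 54.9 and 168 and 173 in the same order, and Bnip3 was 300 and 392, 313 and 399 and 466 and 442. In Treg-treated CD8 cells Hif1a was 20800, 7752, 18109 and 11738, above all syngeneic CD8 libraries. Egln3 was 223, 307, 231 and 226 in Treg-treated CD4 cells and 511, 434 and 349 in later Treg, in both above day 0. Bnip3 was 207, 610 and 239 in syngeneic CD4 cells, where JL019-2 lay above both day 0 libraries and the others below them, and 201, 128 and 243 in syngeneic CD8 cells, all below day 0. Mxi1 was 654, 1773 and 562 in syngeneic and 844, 596, 664 and 740 in allogeneic CD4 cells, with overlap. In CD8 cells Mxi1 was 355, 327 and 383 in syngeneic and 1103, 899, 998 and 1404 in allogeneic hosts, with no overlap.

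Some members with the lowest p of a comparison had values not yet given. Tpi1 was 5192, 12174 and 5296 in syngeneic CD4 cells, 2021 and 2649 in day 0 Treg and 14088, 12150 and 12088 in later Treg. Pgk1 was 7518, 9861 and 8508 in syngeneic CD4 cells, and like Tpi1 it lay above both day 0 CD4 libraries in all 3. Pdk2 was 19.2, 35.6, 26.1 and 23.1 in Treg-treated CD4 cells, all below the syngeneic libraries, and 88.5, 62.8, 49.1 and 65.8 in allogeneic CD8 cells, where 1 library lay below the highest allogeneic CD4 library. Eno1 was 82531, 79809, 87823 and 105157 in Treg-treated CD8 cells, all above the Treg libraries. Slc16a3 was 318, 922 and 291 in syngeneic CD4 and 1123, 382, 1171 and 738 in Treg-treated CD8 cells, the latter all above the syngeneic CD8 libraries. It was 2591, 1797 and 1900 in later Treg, all above the Treg-treated CD4 libraries.

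The rest of the pathway, in lists written from general knowledge, was read for the same comparisons. In allogeneic against syngeneic hosts 7 of 20 other HIF pathway genes rose in CD4 cells and 10 in CD8 cells, with none lower (of all genes 6.69% and 10.4% rose, and 7.91% and 10.7% fell), among them Epas1, which encodes the HIF-2 alpha subunit (4.50 and 6.83), and Bhlhe40 (3.24 and 3.78). The medians of these lists were 0.73 and 1.17, where all genes had 0 and 0.02. The CD4 list without CD4 syngeneic replicate JL019-2 had 7 higher and none lower, with Epas1 at 3.66 and a median of 0.52. The 15 other glycolysis genes that were measured split: 3 rose and 4 fell in CD4 cells (2 without JL019-2 of the syngeneic group), and 6 rose and 1 fell in CD8 cells, with the glucose carrier Slc2a8 higher in CD4 (3.33) and CD8 cells (1.88). Hk3, a hexokinase known from myeloid cells, fell by 2.84 in CD4 cells (and by 1.82 without CD4 syngeneic replicate JL019-2), and that is the library with the highest myeloid markers, whose part in that value was not tested.

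Between Treg-treated and allogeneic CD4 cells, where 11.5% of all genes fell and 10.7% rose, 4 of the 15 other glycolysis genes fell and 1 rose (Pgm1 -0.93, Pgam2 -2.91, Tigar 0.56). Of the 20 other HIF pathway genes 4 fell and 1 rose, with Ndrg1 (-1.26) and Arnt, the partner of Hif1a (-1.66), lower and Fam162a (1.00) higher. Of 10 genes that carry out or control the entry of pyruvate into the mitochondrion 1 fell, Pdha1 (-0.70), and of 7 pentose phosphate genes none was called. Myc, which drives glycolytic genes in activated T cells, changed by -0.29 in CD4 and 0.19 in CD8 cells in this comparison and was not called. It was lower by 2.10 in CD8 cells of allogeneic than of syngeneic hosts and changed by -0.15 in CD4 cells, a difference of -1.96 (adjusted p 0.00126). Of the 9 Myc and mTOR genes 4 fell and 1 rose in Treg-treated against allogeneic CD4 cells. Those that fell were Tsc1 (-1.21) and Tsc2 (-1.46), which restrain mTOR, and Rptor (-1.23) and Akt1 (-1.14), which act in or upstream of it, and Rheb, its activator, rose by 0.72. Rptor and Akt1 were named after their values were seen.

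In Treg against CD4 cells of Treg-treated recipients 13.9% of all genes were higher and 16.1% lower. There 3 of the 20 other HIF pathway genes were higher and 2 lower, with Arnt (1.69) and Ndrg1 (1.20) higher. The mitochondrial proteins Fam162a (-1.58) and Higd1a (-0.98) of the same list were lower. The pyruvate carrier Mpc1 (-1.24) and Pdhb, a subunit of pyruvate dehydrogenase (-0.68), were lower too, among 3 of 10 in that list. Of 7 pentose phosphate genes 5 rose against day 0 in syngeneic CD4 cells, where 9.9% of all genes rose, and 2 rose in each of allogeneic CD4, allogeneic CD8 and syngeneic CD8 cells, where 14.4%, 16.3% and 13% of all genes rose. The 5 became 1 without CD4 syngeneic replicate JL019-2, namely Tkt (1.01, with that library 1.25), and G6pdx changed by 0.64 (adjusted p 0.0716) in place of 1.31.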

How the data were processed

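Bulk RNA of 31 sorted T cell libraries was read from the deposited table, whose signal values are normalised counts per gene, as the deposited column names and values show. kallisto and DESeq2 and the builds GRCm38 and mm10 are named in the submitters' processing notes, with FastQC 0.11.7. Because whole reads could not be recovered from them, the planned count test gave way to limma 3.58.1 in R 4.3.3 on log2(value + 1), a scale that understates changes of low genes. A model with 1 mean per group over all 31 libraries, with trend and robust options, was tested on 17 contrasts across 16741 genes (a filter at a mean of 1 removed none). Python 3.11.15, pandas 2.3.3, numpy 2.4.6, scipy 1.17.1 and matplotlib 3.10.9 were used, and the fit was tested on simulated data. The T-cell receptor tables were not used here.

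All 32 members are named. Values in every library are given for Slc2a1, Slc2a3, Hk2, Ldha, Pdk1, Hif1a, Bnip3, Egln3 and values in the libraries compared for up to 3 called members per contrast with the lowest p, and other genes come from lists, at most 2 per list and direction, plus Myc. Some further levels, such as those of Slc16a3 in CD4 cells, and the printed promoters were chosen after values were seen. The members and lists were chosen with earlier results of these data known. Promoters and spans are from RefSeq GRCm38.p6. Alternatives were another pseudocount (0.1), a stricter or absent filter on low means (10), blocks by recipient or label prefix, only the groups compared, median centring, the library mean as a covariate, the length trend removed, and each library left out. CD4, CD8 and Treg libraries of 1 recipient carry the same recipient label, which pairs them (correlation of deviations -0.114 to 0.428 over 15 pairs).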

Additional observations from a re-analysis of the deposited data

Results flagged for a closer look

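In 7 of 128 groups of 4 libraries, 1 library lay far from the others of its group by Dixon's test, where chance gives about 1 in 20. In CD4 Treg-treated replicate JL027-1, Hk1 was 3108 (others 1194 to 1356), Slc16a1 4950 (1366 to 1964), Pdk1 1093 (446 to 536) and Pdk3 2938 (2115 to 2202). Gpi1 was 9200 in CD8 allogeneic replicate JL027-1 (others 14265 to 14382), Ldha 66604 in CD4 allogeneic replicate JL019-2 (others 89558 to 93154) and Egln3 307 in CD4 Treg-treated replicate JL019-2 (others 223 to 231).

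The allogeneic against syngeneic change differed between CD8 and CD4 cells, in limma's test of the difference, by 1.82 for Ldhb, 2.47 for Slc16a3, 1.90 for Egln3 and 1.91 for Mxi1. Without CD4 syngeneic replicate JL019-2, Ldhb (adjusted p 0.0661) and Egln3 (adjusted p 0.0686) did not pass in that test.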

How the results depend on the processing

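Of 189 called changes of a member, none reversed under any alternative run. With a library left out 1059 values kept the call and 171 lost it, and under other settings 1614 kept it and 88 lost it. The setting without a filter on low means repeated the main fit, because the main filter removed no gene. Its 189 kept calls were fixed in advance. Counts of members called moved by over 1.5 times as follows, and the cause was not tested. For CD4 Treg-treated against allogeneic, 10 became 4 with the library mean as a covariate, and 5 to 13 with a library left out. For CD8 the 0 became 1 with the library mean, and 0 to 1 with a library left out. With only the groups compared in the model, CD4 allogeneic against syngeneic gave 6 in place of 13, CD4 Treg-treated against syngeneic 3 in place of 14, CD4 syngeneic against day 0 gave 0 in place of 11 and the CD8 minus CD4 difference of allogeneic against syngeneic 2 in place of 4 (2 to 4 with a library left out). Treg after against before transplantation gave 9 to 16 (9 without day 0 replicate JL019). For Treg against CD4 at day 0, 1 became 9 with only those groups, 2 with median centring, 5 with the library mean, 2 with the length trend removed, 11 with crossed labels as a replicate block (added after seeing the data) and 0 to 0 with a library left out. Treg against CD4 in Treg-treated recipients gave 7 in place of 13 with the library mean and 8 to 14 with a library left out. CD8 against CD4 in allogeneic recipients gave 6 in place of 2 with only those groups, 4 with the library mean and 1 to 2 with a library left out. The recipient as a replicate block gave 3 in place of 1 for Treg against CD4 at day 0 and 4 in place of 2 for CD8 against CD4, and moved no other count by over 1.5 times. The replicate label alone paired no samples (correlations -0.246 to 0.186 over 16 pairs). Day 0 prefixes gave -0.319 to 0.442 over 6 pairs. Each day 0 group holds 2 libraries, so the pairs of both prefixes have the same correlations by construction. Median centring moved the median of all genes for CD4 Treg-treated against allogeneic from 0 to 0.20, with 2 members higher and 9 lower. Groups of 2 to 4 libraries and an unknown depth limit what can be detected, above all for Vegfa.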
